A study of Mus musculus with 16 samples.

Results

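The amino acid response genes studied here are Atf4 and 9 genes that its protein is known to switch on: Ddit3, Trib3, Asns, Chac1, Sesn2, Nupr1, Psat1, Phgdh and Mthfd2. They were taken by symbol from the first column of the deposited gene tables. The 10 genes stand on 11 of the 55487 rows, because Ddit3 has a second row that holds 0 in every library. All 10 were among the 13905 genes that passed the filter on low counts.

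The RNA came from livers of mice on a high-fat diet, and the question asked of it is how isoforms of the kinase JNK that differ in exon 7 bear on diet-induced metabolic disease. The libraries form 3 groups: 6 Flpo libraries, named for hepatocytes with the 7b form of JNK1 and JNK2, 5 Cre libraries, named for the 7a form, and 5 GFP libraries, the controls. All of them, controls included, carry the genotype written J1 J2 lf/lf and the strain C57/Bl6J. The sources used here do not give how the recombinases were delivered, the promoter that drove them, or the age and sex of the mice. Whether each library is a mouse of its own is not stated outright, so a p-value speaks of the spread over these libraries.

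ATF4 is a transcription factor that is controlled mainly at translation. When amino acids run short or unfolded protein builds up, kinases such as GCN2 and PERK phosphorylate the initiation factor eIF2, which lowers translation in general and raises that of the Atf4 mRNA. ATF4 then pairs with other bZIP proteins and switches on genes for amino acid synthesis, amino acid import and tRNA charging, together with regulators such as CHOP and TRIB3. An RNA measurement sees these target genes and the Atf4 mRNA, not the ATF4 protein.

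ATF4 and a C/EBP partner are known to bind a composite element, read here as TGATGNAA on either strand. It was searched in the 250 bases upstream of each start in the RefSeq promoters of the mouse genome (build GRCm38.p6), where all 10 genes had a record. It stood in 3 of the 10 genes, against 3.91% of 27025 genes with a record. A version with G as the third letter, TGGTGCAA, was searched after the promoters had been read, and stood in a further 2 genes against 0.555% of genes; Psat1 has 2 records, of which 1 holds it. These windows show where the letters lie, which is no evidence of binding, and the other 5 genes had neither string in the window. Starts are those of the RefSeq records, and the windows of Asns, Nupr1 and Psat1 lie inside the longer GENCODE genes whose coordinates are given below. Sequences run along the gene's strand with the match in capitals; in Chac1 and Nupr1 the element lies on the opposite strand and so reads TTGCATCA.
Asns, chr6:7693214-7693243, minus strand, 23 bases before the start: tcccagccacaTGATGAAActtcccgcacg
Chac1, chr2:119351038-119351067, plus strand, 193 bases before the start: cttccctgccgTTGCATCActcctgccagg
Nupr1, chr7:126625562-126625591, minus strand, 110 bases before the start: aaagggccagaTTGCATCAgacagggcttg
Trib3, chr2:152344075-152344104, minus strand, 33 bases before the start: cgggtcacagaTGGTGCAAtcccgggccgc
Psat1, chr19:15925177-15925206, minus strand, 136 bases before the start: acgcgggtggcTGGTGCAAtcccctgctct
Of the 3 genes with the full element, Asns was called in a comparison below, and Chac1 and Nupr1 were called in none.

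Library totals lay between 27929393 and 36043322 estimated counts, with 17067 to 18257 genes above 0. Mapk8 and Mapk9, the genes for JNK1 and JNK2, were not called in any comparison. Mapk8 averaged 13.5 ± 0.824 CPM in Flpo, 11.4 ± 2.44 CPM in Cre and 11.7 ± 3.04 CPM in GFP libraries (SD, n = 6, 5 and 5). Mapk9 ran from 40.5 to 51.2 CPM in Flpo, 28.3 to 41.7 CPM in Cre and 23.3 to 61.7 CPM in GFP libraries. Its log2 fold change was 0.48 in Flpo against Cre (unadjusted p = 0.0132, adjusted p = 0.0784, edgeR). In Cre against GFP it was -0.37 (unadjusted p = 0.0605, adjusted p = 0.230, edgeR). Gene-level counts add up all transcripts of a gene and cannot show which exon 7 was used. Hepatocyte markers were high everywhere: Alb, Apoa1, Ttr, Apob, Serpinc1 and Cps1 summed to between 75612 and 109887 CPM. The median sum was 80283 CPM in Flpo, 103931 CPM in Cre and 83688 CPM in GFP libraries. In Cre against GFP 1 of these 6 was called higher and 1 lower, where 9.55% of all genes were called. In Flpo against Cre 0 were higher and 1 lower, where 13.7% of all genes were called. Title numbers were given group by group, so a batch, if there was one, cannot be told apart from the group.

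**Figure D1:**
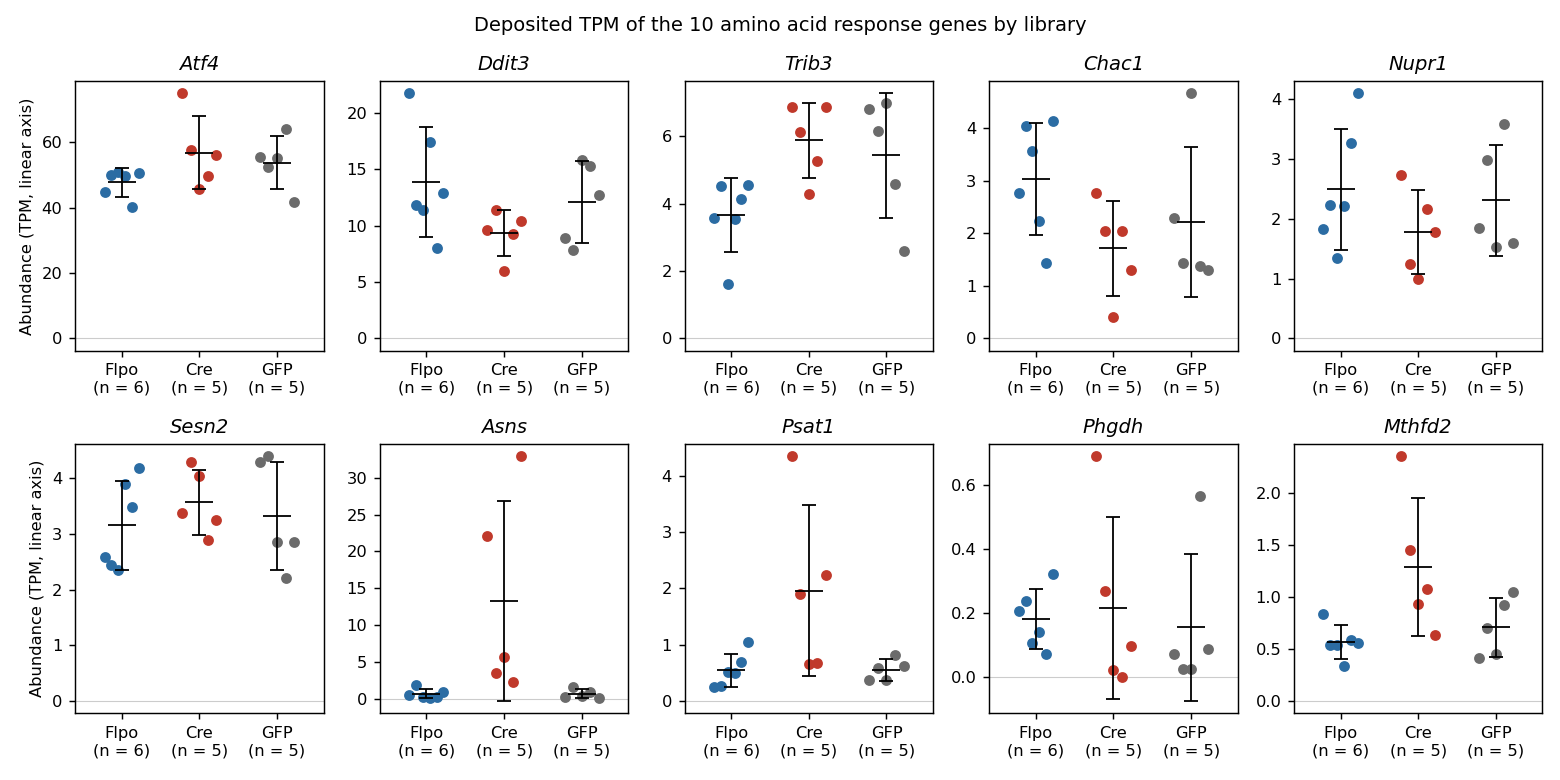
Deposited abundance (TPM, linear axis from 0) of the 10 amino acid response genes in each library, with Flpo left, Cre in the middle and GFP right; bars give the mean and SD. All Cre libraries lie above all GFP libraries for Asns alone, from 2.27 to 32.9 TPM in Cre and from 0.125 to 1.60 TPM in GFP libraries.

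Levels of different genes are compared in TPM, which accounts for gene length. Atf4 was the most abundant of the 10 genes by median in every group, at 49.7 TPM in Flpo, 56.2 TPM in Cre and 55.2 TPM in GFP libraries. Ddit3, the gene for the pro-apoptotic factor CHOP, came next at 12.4, 9.59 and 12.7 TPM in the same order of groups. Asns held the ninth place in Flpo (0.444 TPM) and in GFP libraries (0.441 TPM), and the fourth in Cre libraries (5.65 TPM). Phgdh was the lowest gene in every group, at 0.174 TPM in Flpo, 0.0971 TPM in Cre and 0.0720 TPM in GFP libraries. Below Ddit3 many neighbours in this order lay within each other's spread, as with Chac1 and Sesn2 in Flpo libraries at 3.16 and 3.03 TPM.

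Asns, which encodes asparagine synthetase (chr6:7675169-7693254, minus strand, GRCm38, GENCODE vM21), changed most of the 10. All values from here are CPM, counts scaled to the library total with edgeR's TMM factor, and libraries of a group are listed from replicate 1 to 5. In Flpo libraries Asns ran from 0.248 through a median of 0.607 to 2.75 CPM. It stood at 35.7, 5.71, 10.1, 3.16 and 53.5 CPM in Cre libraries, against 0.380, 2.25, 0.661, 1.27 and 0.194 CPM in GFP libraries. Every Cre library thus lay above every GFP and every Flpo library, while Flpo and GFP libraries overlapped throughout. The counts behind these values were 7.62 to 79.5 in Flpo, 105 to 1363 in Cre and 5.72 to 65.8 in GFP libraries.

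The log2 fold change of Asns was 4.50 ± 0.91 (SE) in Cre against GFP, with an adjusted p of 0.00663 in edgeR's quasi-likelihood test. It was -4.47 ± 0.84 in Flpo against Cre, with an adjusted p of 0.00269 in the same test. Against GFP, the Flpo libraries gave 0.04 ± 0.89, a value whose sign changed with which library was left out. The mean was 21.6 ± 22 CPM in Cre and 0.952 ± 0.833 CPM in GFP libraries (SD, n = 5 each). With each library left out in turn, the value in Cre against GFP ran from 3.84, without Cre replicate 5, to 5.11, without GFP replicate 2. The SD in Cre libraries was as large as the mean, since the highest library held 16.9 times the lowest. With the clock score described below as a covariate, Asns gave 2.90 in Cre against GFP (adjusted p = 0.292) and -2.08 in Flpo against Cre (adjusted p = 0.748). That score largely follows the Cre group, so the fit cannot tell score and group apart. Asns kept its call in each of the other 27 settings tried, in both comparisons.

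Psat1, Phgdh and Mthfd2 supply serine and one-carbon units. Psat1, the phosphoserine aminotransferase (chr19:15904678-15947337, minus strand), ran from 0.434 through 0.813 to 1.70 CPM in Flpo libraries. It stood at 8.37, 3.66, 1.38, 1.11 and 4.36 CPM in Cre libraries, against 0.570, 0.989, 0.661, 1.30 and 1.10 CPM in GFP libraries. Cre replicates 1, 2 and 5 exceeded every GFP and Flpo library, and Cre replicate 4 lay inside the range of both. Psat1 rose in Cre against GFP by 2.02 ± 0.50 on the log2 scale (adjusted p = 0.0161, edgeR) and fell in Flpo against Cre by 2.07 ± 0.47 (adjusted p = 0.00677, edgeR). Without Cre replicate 1 the rise against GFP was 1.5, with an adjusted p of 0.0504; limma-voom gave an adjusted p of 0.0767. A processed pseudogene, Gm3329, overlaps Psat1 on the opposite strand over 556 bases, and the sources used here do not give whether the counting used strand.

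Mthfd2, the mitochondrial methylenetetrahydrofolate dehydrogenase (chr6:83305691-83325908, minus strand), ran from 0.433 through 0.758 to 1.14 CPM in Flpo libraries. It stood at 3.76, 2.33, 1.64, 1.47 and 1.02 CPM in Cre libraries, against 0.539, 0.955, 0.661, 1.21 and 1.52 CPM in GFP libraries. Cre replicates 1, 2 and 3 exceeded every library of the other groups. The order of Mthfd2 among Cre libraries differed from that of Asns, since replicate 5 was the highest for Asns and the lowest for Mthfd2. Mthfd2 fell in Flpo against Cre by 1.40 ± 0.35 on the log2 scale (adjusted p = 0.0133, edgeR), and the call was lost without Cre replicate 1 (adjusted p = 0.0524). The value for Cre against GFP was 1.06 ± 0.37 with an adjusted p of 0.0806 in edgeR and 0.0409 in DESeq2, so the call depended on the test. Gm43890, a gene model on the same strand, overlaps Mthfd2 over 2799 bases, and reads there may have been shared.

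Phgdh, which catalyses the first step of serine synthesis (chr3:98313170-98339990, minus strand), was near the limit of detection, with at most 29.8 counts in any library. Flpo libraries ran from 0.0959 through 0.229 to 0.408 CPM. Phgdh stood at 1.07, 0.431, 0.0373, 0 and 0.157 CPM in Cre libraries, against 0.0951, 0.0341, 0.0348, 0.717 and 0.130 CPM in GFP libraries. The 0 counts in Cre replicate 4 allow up to 0.0902 CPM, taking 3 counts as the limit for counting error. The groups overlapped, the fitted value in Cre against GFP was 0.72 ± 0.92 on the log2 scale (adjusted p = 0.684, edgeR), and no difference was detectable at this depth.

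Beside Asns, Atf4 itself (chr15:80255184-80257541, plus strand) varied little. It ran from 48.2 through 59.1 to 63.5 CPM in Flpo libraries. It stood at 106, 82.1, 71.0, 60.2 and 79.8 CPM in Cre libraries, against 64.5, 64.1, 72.5, 74.8 and 54.1 CPM in GFP libraries. Cre replicates 1, 2 and 5 exceeded every GFP library, and all but Cre replicate 4 exceeded every Flpo library. Atf4 fell in Flpo against Cre by 0.46 ± 0.12 on the log2 scale (adjusted p = 0.0177, edgeR). That call held in 23 of 28 other settings. Among the settings that lost it were the clock score, library totals as the only scaling (-0.33, adjusted p = 0.0796) and the fit without Cre replicate 1 (-0.35, adjusted p = 0.0504). Against GFP, Cre libraries gave 0.27 ± 0.13 (adjusted p = 0.205) and Flpo libraries gave -0.19, neither called.

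Trib3 encodes a pseudokinase that binds ATF4 and AKT (chr2:152337422-152344032, minus strand). Flpo libraries ran from 2.40 through 5.55 to 6.87 CPM. Trib3 stood at 11.6, 10.4, 8.02, 7.64 and 11.7 CPM in Cre libraries, against 9.51, 9.04, 11, 6.42 and 4.05 CPM in GFP libraries. All Flpo libraries lay below all Cre libraries, and both overlapped with GFP libraries. Trib3 fell in Flpo against Cre by 0.90 ± 0.26 on the log2 scale (adjusted p = 0.0259, edgeR), a call that held in 20 of 28 other settings and was lost without Cre replicate 1, 2 or 5 or Flpo replicate 4. In Flpo against GFP it gave -0.60 ± 0.26, with an unadjusted p of 0.0319 and an adjusted p of 0.47 in edgeR; it was the only one of the 10 with an unadjusted p under 0.05 there.

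Ddit3 (chr10:127290774-127296288, plus strand) was not called in any comparison. It ran from 3.87 through 6.17 to 10.5 CPM in Flpo libraries. It stood at 5.47, 6.54, 3.73, 4.54 and 5.93 CPM in Cre libraries, against 4.18, 3.86, 8.35, 7.20 and 6.68 CPM in GFP libraries. All 3 groups overlapped. Its fitted values had the opposite sign to those of Asns in both comparisons with Cre, at 0.37 in Flpo against Cre and -0.21 ± 0.26 in Cre against GFP. The second Ddit3 gene overlaps it in the annotation but was given no counts in any library. Mars overlaps it on the opposite strand over 68 bases, where reads may have been shared.

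**Figure D2:**
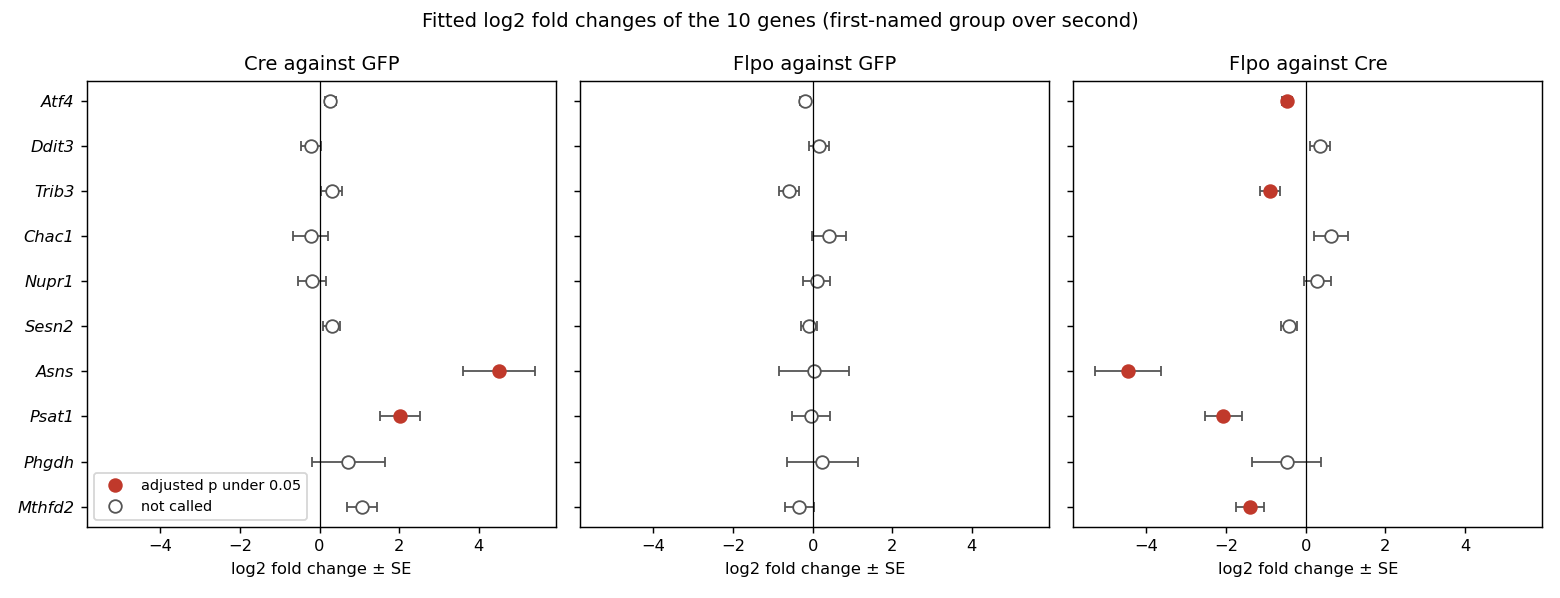
Fitted log2 fold changes (points) with their standard errors (bars) for the 10 genes in the 3 comparisons, the first-named group over the second; filled points passed an adjusted p under 0.05. Asns lies at 4.50 in Cre against GFP and at -4.47 in Flpo against Cre, and all points of Flpo against GFP are open.

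Chac1, Sesn2 and Nupr1 are stress effectors. Chac1 encodes an enzyme that degrades glutathione (chr2:119351229-119354381, plus strand), and it ran from 1.66 through 3.68 to 4.88 CPM in Flpo libraries. It stood at 3.72, 2.77, 0.597, 2.38 and 1.77 CPM in Cre libraries, against 2.54, 1.67, 5.81, 1.53 and 1.62 CPM in GFP libraries. The groups overlapped, and the sign of Cre against GFP, at -0.23 ± 0.44, turned to 0.29 without GFP replicate 3, the highest of all libraries.

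Sesn2 encodes sestrin 2, a leucine-sensing inhibitor of mTORC1 (chr4:132492032-132510501, minus strand); Gm12981 overlaps it on the same strand over 6089 bases. It ran from 6.70 through 8.37 to 11.5 CPM in Flpo libraries. It stood at 10.9, 14, 14.4, 8.0 and 10.6 CPM in Cre libraries, against 11.4, 12.3, 8.59, 5.93 and 8.49 CPM in GFP libraries. Nupr1, a small stress-induced chromatin protein (chr7:126623249-126630861, minus strand), averaged 1.11 ± 0.449 CPM in Flpo (n = 6), 0.908 ± 0.342 CPM in Cre and 1.04 ± 0.378 CPM in GFP libraries (SD, n = 5 each). Neither gene was called in any comparison, and their groups overlapped. The smallest adjusted p among Chac1, Sesn2 and Nupr1 was 0.199, for Sesn2 in Flpo against Cre (log2 -0.41, edgeR).

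Counted over the 10 genes, 2 were called in Cre against GFP, both higher, where 9.55% of all 13905 genes were called, 3.97% higher and 5.58% lower. The Flpo against Cre comparison called 5, all lower, where 13.7% of all genes were called, 7.45% higher and 6.26% lower. In Flpo against GFP, edgeR called 0 of the 10, where it called 0.0288% of all genes; 1 of the 10 had an unadjusted p under 0.05, and DESeq2 and limma-voom also called 0 of the 10. Without Cre replicate 1 the counts were 1 in Cre against GFP and 2 in Flpo against Cre. With the clock score as a covariate they were 0 and 0, while 172 and 36 of all genes were still called in those comparisons.

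The median log2 fold change of the 10 genes was 0.30 in Cre against GFP, with 7 above 0, beside 0.00 for all genes tested. It was -0.47 in Flpo against Cre, with 3 above 0, beside -0.00 for all genes. Complete separation of the groups was seen for 1 of the 10 in Cre against GFP (Asns, Cre above), where 8.20% of all genes separated, 3.56% with Cre above and 4.64% with Cre below. Between Flpo and Cre libraries 2 of the 10 separated (Asns and Trib3, Flpo below), where 7.84% of all genes did, 4.52% with Flpo above and 3.32% with Flpo below. Between Flpo and GFP libraries 0 of the 10 did, where 1.55% of all genes did, 0.676% with Flpo above and 0.870% with Flpo below. Cre libraries serve in 2 of the comparisons, and so do the GFP and Flpo libraries, so the comparisons are not independent of each other.

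The wider pathway was read from lists of genes around ATF4, to be read beside the shares of all genes called, 9.55% for Cre against GFP and 13.7% for Flpo against Cre. Atf5, a bZIP factor related to ATF4, rose most clearly. It ran from 217 through 318 to 356 CPM in Flpo libraries. It stood at 1245, 791, 625, 764 and 913 CPM in Cre libraries, against 272 to 449 CPM in GFP libraries. No Cre library overlapped with either of the other groups. The log2 fold change was 1.20 ± 0.18 in Cre against GFP (adjusted p = 0.000403, edgeR) and -1.49 ± 0.17 in Flpo against Cre (adjusted p = 2.67e-05, edgeR). Its call in Cre against GFP held in all 28 other settings, the clock score included, where its adjusted p was highest at 0.0266. The call in Flpo against Cre held in 27 and was lost with the clock score (-1.36, adjusted p = 0.0563). Of the 10 bZIP partners and rivals tested, Atf5 was the only gene called in Cre against GFP (median log2 -0.12) and also in Flpo against Cre (median 0.37). Cebpb, which encodes a C/EBP partner of ATF4, averaged 272 ± 24.1 CPM in Flpo (n = 6), 201 ± 39.6 CPM in Cre and 219 ± 89.1 CPM in GFP libraries (SD, n = 5 each).

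Of 13 enzymes of serine, one-carbon, proline and aspartate metabolism, 2 rose and 1 fell in Cre against GFP (median log2 -0.19), and 3 rose and 2 fell in Flpo against Cre (median 0.28). Got1, the cytosolic aspartate aminotransferase, stood at 725, 131, 199, 98.2 and 721 CPM in Cre libraries, against 73.3 to 107 CPM in GFP libraries. Its log2 fold change in Cre against GFP was 2.11 ± 0.48 (adjusted p = 0.0125, edgeR). Cbs, which makes cystathionine from homocysteine and serine, rose by 0.87 ± 0.19 on the log2 scale in Cre against GFP (adjusted p = 0.00754, edgeR). Shmt1, the cytosolic serine hydroxymethyltransferase, fell by 0.37 ± 0.11 in that comparison (adjusted p = 0.0394, edgeR), in the direction opposite to Psat1, a call that held in 11 of 28 other settings. In Flpo against Cre, Shmt1, Shmt2 and Aldh1l1 rose, by 0.34, 0.35 and 0.51 on the log2 scale, while Cbs and Got1 fell by 1.0 and 1.8. In that comparison Shmt1 held its call in 12 of 28 other settings, Aldh1l1 in 17, Shmt2 in 21, Got1 in 24 and Cbs in 27. With the clock score Shmt1 was -0.0146, Got1 -0.44 (adjusted p = 0.937) and Cbs -0.62 (adjusted p = 0.580).

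Of 8 amino acid transporters tested, 2 rose in Cre against GFP (median log2 0.45) and 2 fell in Flpo against Cre (median -0.22). Slc1a4, a carrier of neutral amino acids, gave 1.24 ± 0.36 in Cre against GFP (adjusted p = 0.0381, edgeR), and its close relative Slc1a5 gave 1.63 ± 0.48 (adjusted p = 0.0402, edgeR). Both calls were fragile: they held in 13 and 17 of 28 other settings. In Flpo against GFP, Slc1a5 also gave a positive value, 1.22 ± 0.46, not called (unadjusted p = 0.0177, adjusted p = 0.422, edgeR). In Flpo against Cre it gave -0.42 (adjusted p = 0.591, edgeR), so Cre and Flpo libraries were not told apart for Slc1a5. Its highest library was Cre replicate 5, at 7.49 CPM. Slc3a2, the heavy chain that several amino acid exchangers share, fell by 0.43 ± 0.11 in Flpo against Cre (adjusted p = 0.0131, edgeR). Slc7a11, the cystine carrier known as a target of ATF4, averaged 0.141 ± 0.155 CPM in Flpo (n = 6), 0.169 ± 0.242 CPM in Cre and 0.098 ± 0.10 CPM in GFP libraries (SD, n = 5 each), and did not pass the filter.

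The 20 cytosolic aminoacyl-tRNA synthetases, which charge tRNAs with their amino acids, gave small values. In Cre against GFP, Vars (0.46, adjusted p = 0.00707) and Nars (0.33, adjusted p = 0.0251) rose in edgeR's test, and these calls held in 25 and 17 of 28 other settings. Tars, Lars, Vars and Gars fell in Flpo against Cre, by 0.56, 0.45, 0.40 and 0.38 on the log2 scale. All 20 had a value above 0 in Cre against GFP, with a median of 0.23, but 17 did with library totals as the only scaling and 13 in the fit to log2(TPM + 1). Flpo against Cre had 0 of the 20 above 0, but 4 and 12 did under those settings. Those settings also moved the median of all genes, to -0.14 and -0.12 in Cre against GFP, where the synthetases' medians were 0.08 and 0.03. In Flpo against Cre the median of all genes moved to 0.13 and 0.14, with the synthetases at -0.05 and 0.03. The synthetases' median thus stayed above that of all genes in Cre against GFP and below it in Flpo against Cre, while the signs of single members followed the scaling.

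Of 14 genes for eIF2 kinases, eIF2 and its phosphatase subunits, edgeR called 0 in Cre against GFP, with 3 at an unadjusted p under 0.05; DESeq2 called 2 and limma-voom 0. In Flpo against Cre, 1 rose (Ppp1r15b, which directs a phosphatase to eIF2, by 0.26) and 2 fell (Gcn1, the activator of GCN2, by 0.42, and Eif2b4, by 0.51). These calls held in 22, 18 and 9 of 28 other settings, and Eif2b4 was -0.30 without Cre replicate 5 (adjusted p = 0.143). Of 18 ER chaperones and factors of the other unfolded protein response branches, 2 rose in Cre against GFP, Dnajc3 by 0.47 and Xbp1 by 0.34. The median of those 18 was 0.32, with 17 above 0, but 15 with library totals as the only scaling and 13 on log2(TPM + 1). In Flpo against GFP 0 of the 18 were called, but all 18 lay above 0, under those settings too, with a median of 0.21. Values above 0 against GFP were thus not particular to Cre libraries. Both comparisons share the GFP libraries, and a shift of the list was not tested. In Flpo against Cre, Dnajb9 rose by 0.57 and Xbp1 fell by 0.28, calls that held in 12 and 14 of 28 other settings, and the median was -0.13.

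Other effectors of the stress response moved in both directions. Of 14 tested, 2 fell in Cre against GFP and 0 rose (median 0.11). Vldlr, the very low density lipoprotein receptor, averaged 1.45 ± 1.12 CPM in Cre and 9.92 ± 2.42 CPM in GFP libraries (SD, n = 5 each), a log2 fold change of -2.75 ± 0.44 (adjusted p = 0.00104, edgeR). Gdf15, a hormone known to be induced by this response, fell in Cre against GFP by 1.17 ± 0.30 on the log2 scale (adjusted p = 0.0206, edgeR). It ran from 6.73 to 17.8 CPM in Flpo, 4.29 to 11.4 CPM in Cre and 10.6 to 24.6 CPM in GFP libraries. Gdf15 was not called in Flpo against Cre, so Cre and Flpo libraries were not told apart for it. Fgf21, a liver hormone known as a target of ATF4, stood at 50.9, 36.4, 9.10, 17 and 60.2 CPM in Cre libraries, against 9.63, 17.6, 8.21, 20.6 and 7.49 CPM in GFP libraries. The value in Cre against GFP was 1.45 with an adjusted p of 0.0524, and Fgf21 fell in Flpo against Cre by 2.11 ± 0.43 (adjusted p = 0.00425, edgeR). In Flpo against Cre, 3 of the 14 rose (Vldlr, Herpud1 and Ddit4) and 5 fell (Fgf21, Cdkn1a, Gadd45a, Eif4ebp1 and Sqstm1), with a median of -0.35. The calls of Gadd45a, Cdkn1a and Eif4ebp1 held in 16, 17 and 18 of 28 other settings, and Cdkn1a was -0.92 without Cre replicate 5 (adjusted p = 0.107). None of the 7 lists around ATF4 held a gene called in Flpo against GFP by edgeR or under any other setting; between 0 and 4 of their genes had an unadjusted p under 0.05 there.

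**Figure D3:**
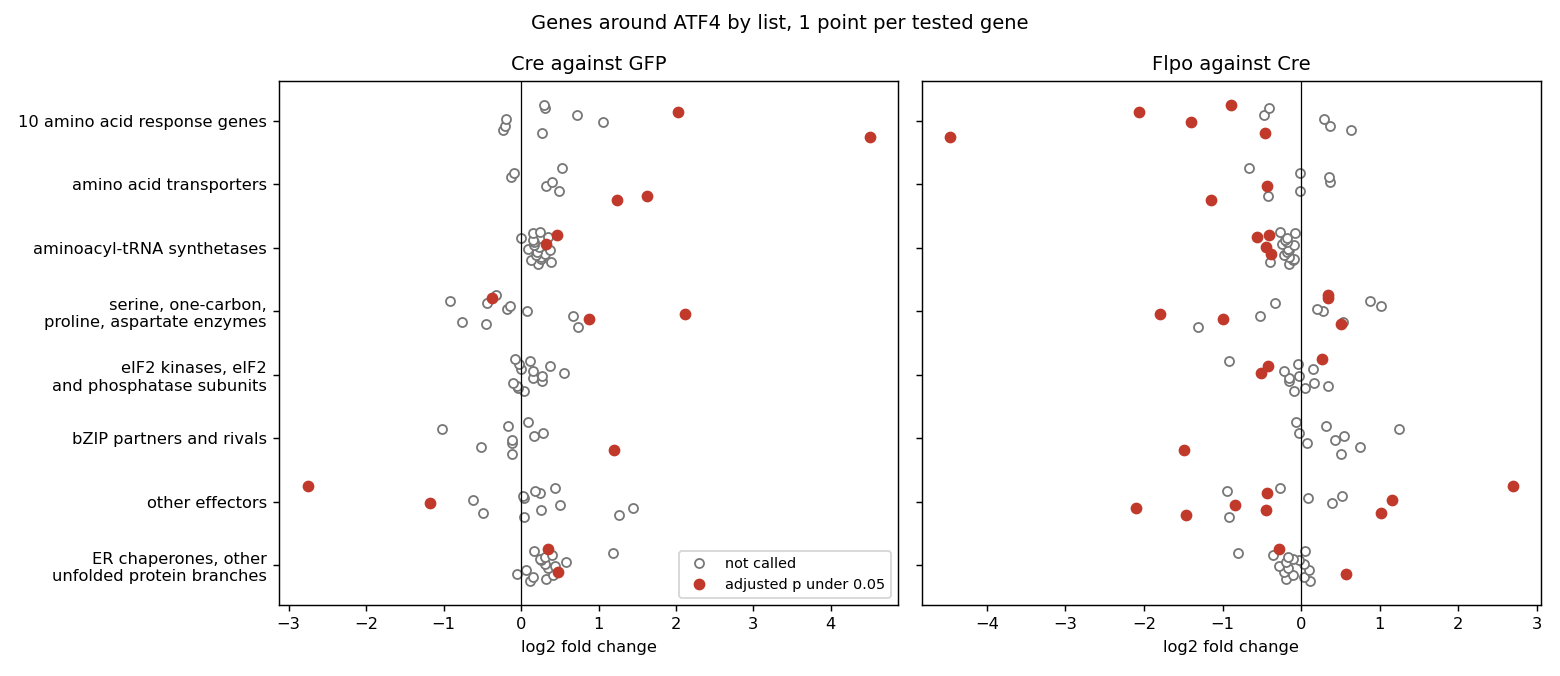
Log2 fold changes of the 10 genes and of the 7 lists around ATF4, 1 point per tested gene, for Cre against GFP (left) and Flpo against Cre (right); filled points passed an adjusted p under 0.05. Asns, at 4.50 and -4.47, lies farthest out, and most synthetases and eIF2 genes lie within 0.5 of 0.

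The Cre libraries were not uniform. Asns, Psat1, Got1, Cbs, Fgf21 and Igfbp1 were each highest in Cre replicates 1 and 5, genes picked for this description after their values were seen. Igfbp1, a liver gene induced by fasting, stood at 205, 76.0, 28.2, 49.0 and 425 CPM in Cre libraries, against 15.9 to 31.8 CPM in GFP libraries. Slc1a4 had the reverse order, at 6.58, 18.7, 11.7, 20.2 and 5.89 CPM in Cre libraries, where replicates 1 and 5 were lowest and close to the 4.76 to 5.73 CPM of GFP libraries. Mthfd2 and Sesn2 followed neither order.

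**Figure D4:**
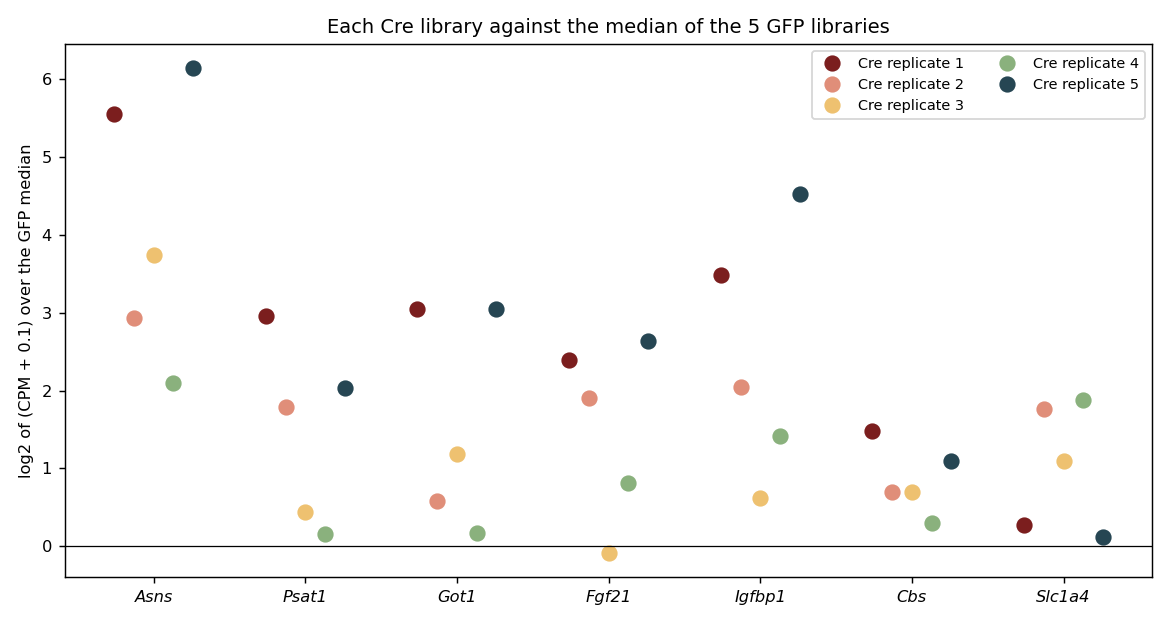
Each Cre library as log2 of (CPM + 0.1) over the median of the 5 GFP libraries, for Asns, Psat1 and 5 other genes. Replicates 1 and 5 are the highest points for the first 6 genes and the lowest for Slc1a4.

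The likeness of other genes to Asns was measured as Pearson's r of log2 CPM over the 16 libraries among 11789 genes with a mean of at least 1 CPM. It is a description only, since the libraries share groups and depth. Closest were Fam222a (r = 0.94, Spearman's rho = 0.86), Nlrp12 (0.92, 0.77), Gstp1 (0.91, 0.85), Egfr (0.91, 0.94), Atf5 (0.91, 0.86) and Pnpla7 (0.90, 0.90). Without the 2 libraries farthest from the median of Asns, Cre replicates 1 and 5, these r values lay between 0.80 and 0.88. Among the other amino acid response genes, Atf4 (0.76, rank 286) and Psat1 (0.76, rank 289) came closest, while Chac1 (-0.17) and Ddit3 (-0.23) ran the other way. After centring each group on its own mean, the closest gene was Hmces (r = 0.89, rho = 0.87), and Atf4 had r = 0.61 (rank 340) and Psat1 0.40 (rank 1560).

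Several other measurements also differed between the groups. A clock score was formed as the mean z value of Arntl, Npas2, Clock and Cry1 minus that of Nr1d1, Nr1d2, Dbp, Tef, Per3 and Ciart, genes that peak at different hours in the liver. It was between -1.70 and -0.278 in Flpo libraries, 1.73, 1.78, 1.79, -0.355 and 2.08 in Cre libraries and between -0.866 and 0.712 in GFP libraries. Cre replicate 4, whose score lay inside the range of GFP libraries, was also the Cre library with the least Asns, at 3.16 CPM, which was still above the highest GFP library at 2.25 CPM. Its Psat1, at 1.11 CPM, lay within the range of GFP libraries. Cre replicate 5 had both the highest score and the most Asns of the Cre libraries, at 53.5 CPM. The other groups did not share that order. Flpo replicate 2 had the most Asns of its group, 2.75 CPM, at a score of -1.53. GFP replicate 1 had the highest score of its group, 0.712, with 0.380 CPM of Asns. The relation of score and Asns within groups was not tested. Of 14 clock genes, 3 fell and 0 rose in Cre against GFP, where 9.55% of all genes were called. In Flpo against Cre 8 rose and 3 fell, where 13.7% of all genes were called. In Flpo against GFP 0 of the 14 were called, but 9 had an unadjusted p under 0.05 in edgeR, as did 1353 of all 13905 genes. All Cre libraries but replicate 4 scored above every GFP and Flpo library, and the score comes from the same counts. Score and Cre group thus cannot be told apart in the covariate fit, and calls lost there do not show a part of the clock. The sources used here do not give the hour of harvest, and the part of the clock in these results was not tested.

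**Figure D5:**
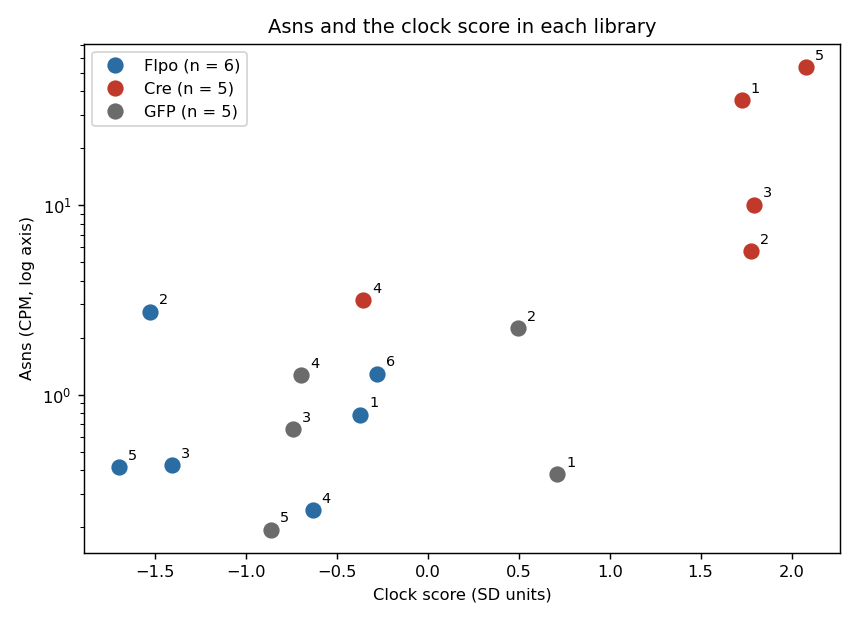
Asns (CPM, log axis) against the clock score (in SD units) in each of the 16 libraries, with Flpo in blue, Cre in red and GFP in grey; numbers are replicates. Of the Cre libraries, 4 lie at scores from 1.73 to 2.08, and Cre replicate 4 lies at -0.355 with 3.16 CPM of Asns.

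Genes of fasting and feeding also differed. In Cre against GFP, 4 of 13 rose and 3 fell, where 9.55% of all genes were called. Igfbp1 rose by 2.79, Irs2 by 1.63, Pck1 by 1.31 and Cpt1a by 0.42 on the log2 scale. Those that fell included Thrsp, by 3.31, and Pklr, by 1.08. In Flpo against Cre 3 rose and 3 fell, where 13.7% of all genes were called. In Flpo against GFP 0 of the 13 were called, where 0.0288% of all genes were, and 12 lay above 0. The feeding state at harvest is likewise not given, and its part in the results was not tested.

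Markers of other cell types were read beside these values; in bulk liver, fewer cells of a type and less RNA per cell cannot be told apart. Pancreatic acinar cells are known for high Asns, and 10 of their marker genes summed to 7.86 to 13.4 CPM in Flpo, 10.4 to 14.7 CPM in Cre and 9.25 to 12.5 CPM in GFP libraries. In each group 4 or 5 of them were at 0 in every library. Stellate cell and fibroblast markers (6 genes) summed to 170 to 255 CPM in Flpo, 95.5 to 170 CPM in Cre and 150 to 222 CPM in GFP libraries. Of these 6, 3 fell in Cre against GFP, where 9.55% of all genes were called. Adipocyte markers summed to 2948 to 4614 CPM in Flpo, 130 to 1501 CPM in Cre and 2352 to 4454 CPM in GFP libraries, nearly all of it Car3, which hepatocytes also express. The other marker lists were read in Cre against GFP. Of 6 endothelial genes 1 (Kdr) rose, with 6 above 0 and a median log2 of 0.25. Of 6 cholangiocyte genes 1 (Sox9) rose, but only 2 lay above 0 and the median was -0.25. Of 4 blood cell genes 1 (Hbb-bs) fell, and 1 lay above 0. In edgeR 0 of 6 Kupffer cell and 0 of 5 lymphocyte and neutrophil genes were called. Neither of these lists had a gene at an unadjusted p under 0.05. The part of these cell types in the results was not tested.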

How the data were processed

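Liver RNA was sequenced in 16 libraries after polyA enrichment, per the labels' protocols. The submitters' processing notes name cutadapt, STAR and the build mm10 without versions; the sources used here do not give the counting program. The authors deposited estimated counts per gene, of which 31.7% were not whole, and TPM. After rounding, estimated counts went into edgeR 4.0.16 (R 4.3.3), filtered by filterByExpr (minimum count 10), scaled by TMM and fitted with a robust quasi-likelihood model over all 16 libraries, with 3 contrasts adjusted by Benjamini-Hochberg over 13905 genes and called at 0.05. Deposited TPM served for levels between genes and, with limma 3.58.1, as an alternative; DESeq2 1.42.0 and limma-voom were others, with other filters and scalings, left-out libraries, a replicate block and the clock score. The fit was tested on simulated data. No 2 libraries had the same total of estimated counts or the same number of genes above 0. Groups and replicate numbers come from the titles. The 10 genes and all lists were chosen with earlier results of these data known. Named list genes are those called in a comparison, plus known ATF4 targets; Cebpb, Igfbp1 and the rest of the within-Cre description were added after their values were seen.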

Additional observations from a re-analysis of the deposited data

Results flagged for a closer look

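In 30 sets of replicate values (10 genes in 3 groups), the highest and lowest library were compared with their neighbours by Dixon's test, which flags about 1 set in 20 by chance. It picked out 2. Chac1 stood at 5.81 CPM in GFP replicate 3, with the next GFP library at 2.54 CPM. Phgdh stood at 0.717 CPM in GFP replicate 4, with the next at 0.130 CPM. Neither gene was called in any comparison with these libraries in, and the sign of Chac1 in Cre against GFP turned without GFP replicate 3. The large spread of Asns in Cre libraries was not picked out, because replicates 1 and 5 were high together.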

How the results depend on the processing

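For Cre against GFP, 1328 genes were called (552 higher, 776 lower); 834 were with only these groups in the fit, 2104 (216 higher, 1888 lower) and 2172 (213 higher, 1959 lower) in limma on log2(TPM + 1) and log2(TPM + 0.1), 172 with the clock score and 475 at an adjusted p under 0.01. Library totals as the only scaling split the calls into 300 higher and 1656 lower, and in Flpo against Cre into 1810 higher and 454 lower, against 1036 and 870. Of the 10 genes, 2 were called in Cre against GFP; limma-voom, the replicate block and the 0.01 threshold left 1, and the clock score 0, with 1 to 3 when a library was left out. For Flpo against GFP, 4 genes were called; DESeq2 called 72, limma-voom 0 and with quality weights 20, the fit of these groups alone 1, and the block, the clock score and the 0.01 threshold 0, with 0 to 15 when a library was left out. For Flpo against Cre, 1906 genes were called, 36 with the clock score and 881 at 0.01. Of the 10 genes, 5 were called there, 3 with library totals and in both TPM fits, 2 at 0.01 and 0 with the clock score, with 2 to 5 when a library was left out. The cause of these shifts was not tested.

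Signs turned for values that were not called and for Shmt1. With the clock score, Cre against GFP gave -0.0214 for Trib3, -0.18 for Sesn2 and -0.12 for Phgdh, Flpo against GFP gave 0.15 for Sesn2 and 0.18 for Psat1, and Flpo against Cre gave 0.33 for Sesn2, 0.56 for Phgdh and -0.0146 for Shmt1, whose call was lost. Phgdh in Flpo against Cre was also above 0 in limma-voom (0.72), with quality weights (0.53) and on log2(TPM + 0.1) (0.20). Asns in Flpo against GFP was -0.14 with quality weights. When each library was left out, ranges spanned 0 in Cre against GFP for Chac1 (-0.48 to 0.29), Nupr1 (-0.41 to 0.0037) and Phgdh (-0.39 to 2.14). They did so in Flpo against GFP for Ddit3 (-0.0150 to 0.30), Asns (-0.59 to 0.63), Sesn2 (-0.23 to 0.0140), Nupr1 (-0.10 to 0.28), Psat1 (-0.33 to 0.11) and Phgdh (-0.0186 to 1.65), and in Flpo against Cre for Phgdh (-0.81 to 0.63).

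The titles do not say whether the replicate numbers pair libraries, and little pairing was seen. Of 15 same-numbered pairs, 1 had a correlation of deviations over 0.1 (range -0.16 to 0.12), and 3 of 16 libraries correlated best with their own number. A weak shared effect might not show in this measure. With the replicate block, the 3 comparisons, in the order above, called 1019, 0 and 1352 genes, and Asns and Nupr1 gave -0.32 and -0.11 in Flpo against GFP. Low counts limit Phgdh most, and the filter at 1 CPM removed it.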
